A study of Mus musculus with 8 samples.

Results

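The genes described here are 10 textbook transcriptional targets of the tumour suppressor p53: Ccng1, Btg2, Cdkn1a, Mdm2, Sesn1, Sesn2, Pmaip1, Bbc3, Zmat3 and Trp53inp1. They were measured in 8 pools of mouse 2-cell embryos, 1 Affymetrix array per pool, and make up 10 of the 14995 genes represented by a probeset carrying 1 gene symbol. Each member was read through the brightest such probeset by the mean of the 8 arrays. Each of the 10 has only 1 such probeset, and a further probeset that Zmat3 shares with another transcript was not used. Genes whose mean was no higher than log2 2.07, the 30th percentile of the probesets, were left out as low, and all 10 members were among the 11444 genes kept.

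The mothers of all embryos were C57BL/6 females given 5 IU of eCG and of hCG. The sire is the only difference between the groups that the labels give. The sires were C57BL/6 males (3 arrays, the control), males carrying a KDM1A transgene (KDM1A TG, 3 arrays, titled TG3) or non-transgenic males (nonTG, 2 arrays, titled nonTG3), which the series describes as littermates of the transgenic ones. Embryos were flushed from oviducts 46 to 48 hours after hCG, and a pool held 26 embryos on average. The sources used here do not give the promoter of the transgene, the number of sires, the ages of the mice or which embryos of a pool carried the transgene. Whether 1 group's pools had separate fathers is not stated either, so each p-value rests on pool-to-pool spread that may be technical.

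p53 is a transcription factor that the ubiquitin ligase Mdm2 keeps at a low level and that DNA damage and other stresses stabilise. Its targets halt the cell cycle, limit oxidative damage, trigger apoptosis or feed back on p53 itself. In the 2-cell mouse embryo the zygotic genome has begun to be transcribed in earnest while transcripts loaded into the egg are being degraded, so an RNA level there reflects both sources. The gene encoding p53 lacks a probeset of its own in the annotation and was not analysed here.

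The promoter sequences of Ccng1 and Btg2 are shown first because these are the members whose RNA differed most between the sire groups. They come from NCBI RefSeq genes of GRCm38.p6, in a table of 300-base windows that run from 250 bases before to 50 after a gene's start. That table holds windows for 7 of the 10 members, 11 windows in all, and Pmaip1, Zmat3 and Trp53inp1 have none in it. The windows were searched on both strands for the 10-base p53 response element consensus, the repeat unit of which p53 binds a pair. It reads 3 purines, C, A or T, A or T, G and 3 pyrimidines and is its own reverse complement. The Ccng1 stretch lies at chr11:40755317-40755536 and the Btg2 stretch at chr1:134079186-134079405, each on the minus strand and ending 31 bases before the start. In the Ccng1 line the capitals mark the match to the p53 consensus, and in the Btg2 line they mark TGACGTCA, the palindromic element bound by CREB and ATF factors.
Ccng1: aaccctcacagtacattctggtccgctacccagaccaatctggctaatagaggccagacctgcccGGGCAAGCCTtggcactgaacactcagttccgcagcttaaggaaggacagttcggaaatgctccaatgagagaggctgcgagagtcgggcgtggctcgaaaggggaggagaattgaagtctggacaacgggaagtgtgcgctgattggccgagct
Btg2: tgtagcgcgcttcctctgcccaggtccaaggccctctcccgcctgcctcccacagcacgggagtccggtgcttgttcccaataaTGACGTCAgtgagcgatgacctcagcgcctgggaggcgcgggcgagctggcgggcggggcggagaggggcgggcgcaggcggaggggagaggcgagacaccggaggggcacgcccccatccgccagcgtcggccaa

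The Ccng1 window held 1 exact match to the p53 consensus, 185 to 176 bases before the start. The Btg2 window held 0, its closest stretch matching 9 of 10 bases, which is also reached in 70% of all windows in the table. TGACGTCA stood once in the Btg2 window, 166 to 159 bases before the start, and was chosen for display after the window had been read. An exact p53 match was present in 8.36% and TGACGTCA in 1.79% of all 32851 windows. Among the other members, Cdkn1a, Mdm2 and Sesn1 each had a window with an exact match. So 4 of the 7 members did, beside 9.55% of the 27025 genes in the table, and 4 of the 11 member windows, beside the 8.36%. Cdkn1a was the member with 2 exact matches separated by at most 13 bases, an arrangement found in 0.0731% of all windows. Only exact matches were paired and put in capitals. The unmarked bases tgacatgttc, directly after the second Cdkn1a match, miss the consensus in their first base. Its stretch lies at chr17:29090886-29090957 on the plus strand, by the upstream of its 2 annotated starts, 2790 bases before the other. The Mdm2 stretch lies at chr10:117710915-117710964 on the minus strand and the Sesn1 stretch at chr10:41887246-41887295 on the plus strand, by the downstream of its annotated starts. They are shown, with the same capitals, for comparison with Ccng1.
Cdkn1a: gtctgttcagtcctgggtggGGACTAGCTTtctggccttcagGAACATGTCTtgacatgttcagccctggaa
Mdm2: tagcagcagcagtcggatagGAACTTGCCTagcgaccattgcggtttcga
Sesn1: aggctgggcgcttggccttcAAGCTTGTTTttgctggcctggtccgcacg

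A match describes letters in these windows only, and p53 elements that lie in introns or further upstream were not searched.

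**Figure D1:**
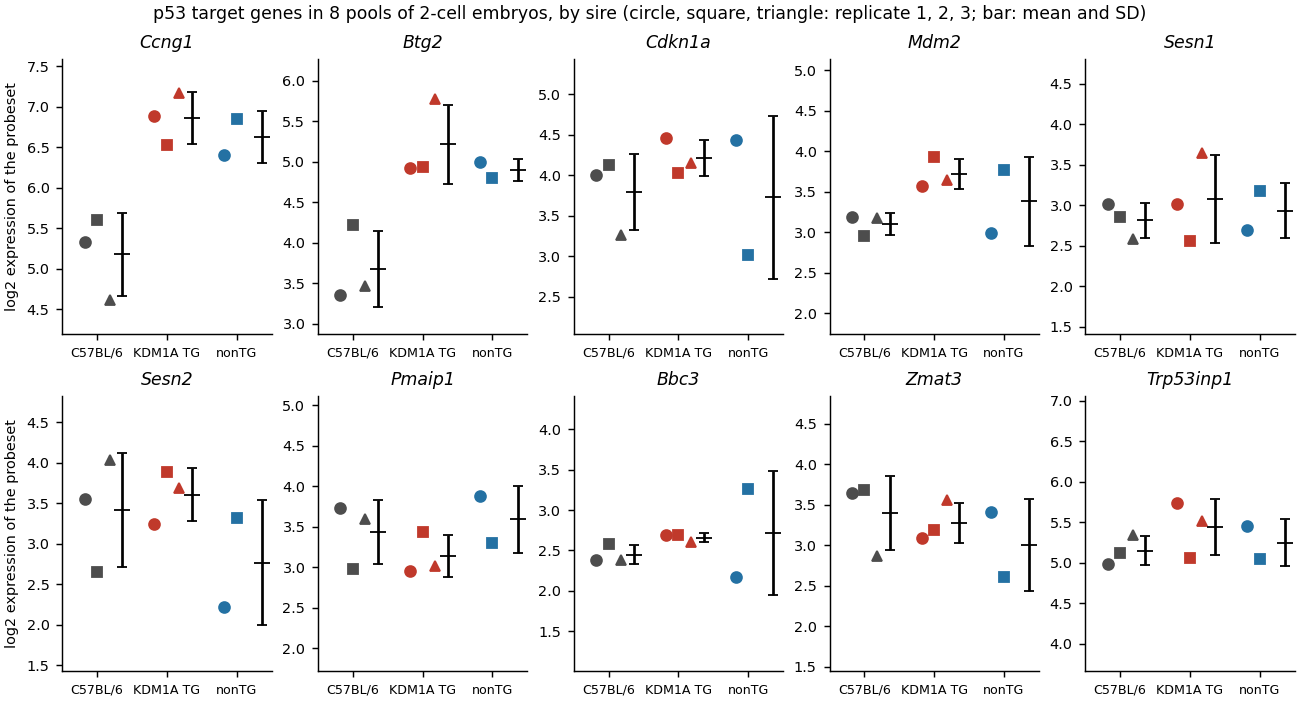
log2 expression (vertical axis, 1 probeset per gene, every panel spanning the same number of log2 units) of the 10 p53 targets in the C57BL/6, KDM1A TG and nonTG arrays; symbols mark replicates, and bars give the mean and SD of each group. The KDM1A TG and nonTG points stand above all C57BL/6 points for Ccng1 (6.40 to 7.17 against 4.61 to 5.60) and Btg2 (4.81 to 5.78 against 3.36 to 4.22).

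The deposited values are log2 expression summaries, so a difference of 1 is a 2-fold change, and levels are compared within a probeset only. Array medians lay between 2.73 and 2.86, and the interquartile range was wider in KDM1A TG replicates 1 and 3 (2.38 and 2.60) than in the other 6 arrays (1.87 to 2.09). Groups were compared with limma on all 8 arrays, two-sided, with Benjamini-Hochberg adjustment over the 11444 genes. Between KDM1A TG and C57BL/6 embryos 75 genes were higher and 8 lower at an adjusted p under 0.05, a share of 0.725%. That count fell to 4 higher and 1 lower after quantile normalization and after cyclic loess. The median log2 change of all genes in this comparison was 0.18, and 64.9% of genes had a change above 0, so the members are read beside these values.

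The comparison of KDM1A TG with C57BL/6 sires asks how embryos of transgenic males differ from those of the control strain. Ccng1 and Btg2 rose, by 3.20-fold and 2.90-fold, and the other 8 members did not pass the test. The 2 called members of 10 stand beside the 0.655% of all genes called higher. The members were proposed with these calls known, so the count is a description and not evidence for the set.

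Ccng1 encodes cyclin G1, an atypical cyclin that recruits protein phosphatase PP2A to Mdm2. Its log2 values were 5.33, 5.60 and 4.61 in C57BL/6 replicates 1, 2 and 3, then 6.88, 6.53 and 7.17 in KDM1A TG and 6.40 and 6.85 in nonTG replicates. All KDM1A TG arrays were above all C57BL/6 arrays, and the lowest of the former exceeded the highest of the latter by almost 1 log2 unit. The group means were 6.86 ± 0.32 (SD, n = 3) and 5.18 ± 0.51 (SD, n = 3). The log2 change was 1.68 (SE 0.33, 95% interval 1.02 to 2.34), with limma's adjusted p = 0.00297, the 9th smallest p of all genes tested.

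Btg2 encodes an antiproliferative protein that brings the CCR4-NOT deadenylase to mRNAs, and it is also known as an immediate-early gene. Its log2 values were 3.36, 4.22 and 3.46 with C57BL/6, 4.93, 4.94 and 5.78 with KDM1A TG and 4.99 and 4.81 with nonTG sires. Again no KDM1A TG array overlapped a C57BL/6 array. KDM1A TG replicate 3 was the highest and the other KDM1A TG arrays lay close to the nonTG arrays. The change was 1.54 on the log2 scale (SE 0.33, 95% interval 0.88 to 2.20), with limma's adjusted p = 0.00834, the 17th smallest p.

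The third gene of cell cycle arrest is Cdkn1a, which encodes the cyclin-dependent kinase inhibitor p21. It stood at 4.0, 4.13 and 3.26 with C57BL/6, 4.46, 4.03 and 4.15 with KDM1A TG and 4.44 and 3.02 with nonTG sires. The ranges of the groups overlapped, and the 2 nonTG arrays lay further apart than any arrays of the other groups. Its log2 change from C57BL/6 to KDM1A TG was 0.41 (95% interval -0.26 to 1.09, limma's adjusted p = 0.551). That interval includes 0 and overlaps the Ccng1 interval of 1.02 to 2.34. Whether Cdkn1a and Ccng1 changed differently was not tested.

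Mdm2, the feedback inhibitor of p53, had log2 values of 3.18, 2.95 and 3.17 in C57BL/6, 3.57, 3.92 and 3.65 in KDM1A TG and 2.99 and 3.77 in nonTG arrays. The KDM1A TG arrays were above the C57BL/6 arrays without overlap, while the nonTG arrays fell on either side of that gap. The log2 change was 0.61 (95% interval -0.03 to 1.26) and did not pass (limma's adjusted p = 0.377). It was the third largest among the members.

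The 3 members of antioxidant and metabolic defence did not pass. Sesn1 and Sesn2 encode sestrins, which restrain mTORC1 signalling, and Sesn2 is also a target of the stress factor ATF4. Sesn1 stood at 3.01, 2.85 and 2.58 in C57BL/6, 3.01, 2.56 and 3.65 in KDM1A TG and 2.70 and 3.17 in nonTG arrays, and the groups overlapped. Sesn2 stood at 3.56, 2.65 and 4.04 in C57BL/6, 3.24, 3.88 and 3.69 in KDM1A TG and 2.22 and 3.32 in nonTG arrays. It varied more between the C57BL/6 arrays than any other member (SD 0.71). Trp53inp1, whose product acts in autophagy and antioxidant defence, stood at 4.98, 5.12 and 5.34 in C57BL/6, 5.74, 5.06 and 5.52 in KDM1A TG and 5.45 and 5.05 in nonTG arrays. The log2 changes from C57BL/6 to KDM1A TG were 0.26 for Sesn1, 0.19 for Sesn2 and 0.29 for Trp53inp1 (limma's adjusted p = 0.703, 0.796 and 0.66), all close to the median of 0.18 for all genes.

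Pmaip1 and Bbc3 encode the BH3-only proteins Noxa and Puma, which trigger apoptosis by binding anti-apoptotic BCL-2 proteins. Pmaip1 stood at 3.73, 2.98 and 3.60 in C57BL/6, 2.95, 3.44 and 3.02 in KDM1A TG and 3.88 and 3.30 in nonTG arrays. Its log2 change of -0.30 (95% interval -0.95 to 0.35, limma's adjusted p = 0.655) was the most negative among the members. Bbc3 stood at 2.39, 2.58 and 2.38 in C57BL/6, 2.69, 2.69 and 2.60 in KDM1A TG and 2.17 and 3.26 in nonTG arrays. Its KDM1A TG and C57BL/6 arrays did not overlap, but the log2 change was only 0.21 (95% interval -0.44 to 0.86, limma's adjusted p = 0.761). Zmat3, an RNA-binding zinc finger protein that regulates splicing, stood at 3.64, 3.69 and 2.87 in C57BL/6, 3.09, 3.19 and 3.56 in KDM1A TG and 3.41 and 2.61 in nonTG arrays. Its change was -0.12 (limma's adjusted p = 0.87), with overlapping groups.

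In this comparison 8 of the 10 members had a log2 change above 0, or 80%, beside 64.9% of all genes. The median of the 10 was 0.28 beside 0.18. Such counts and medians include Ccng1 and Btg2, here and in the later comparisons, and the set was proposed with their calls known. The other 8 changes ran from -0.30 to 0.61. For 4 members, Ccng1, Btg2, Mdm2 and Bbc3, every KDM1A TG array stood above every C57BL/6 array, as for 14.5% of all genes. Counting either direction, 19.8% of all genes had groups without overlap.

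**Figure D2:**
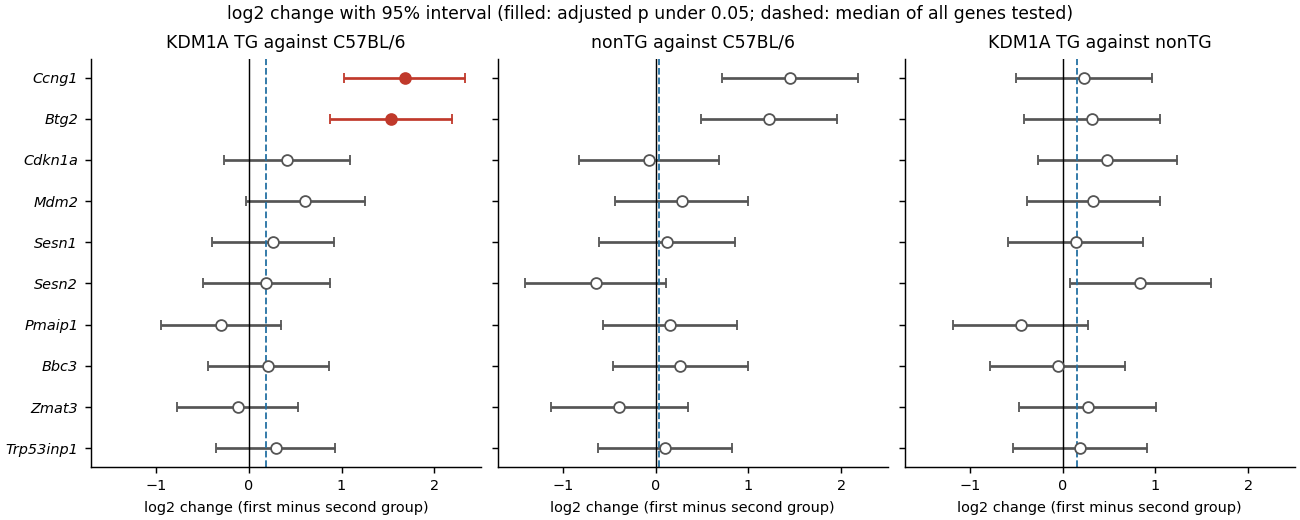
log2 change (horizontal axis, first minus second group) of the 10 p53 targets in the 3 comparisons, with 95% intervals from limma; filled points passed at an adjusted p under 0.05, and the dashed line is the median of all 11444 genes. Only Ccng1 and Btg2 in KDM1A TG against C57BL/6 are filled (1.68 and 1.54), and in nonTG against C57BL/6 these genes have the largest changes (1.45 and 1.22).

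Embryos of nonTG sires, from males without the transgene, were compared with the same C57BL/6 arrays. No member passed limma's test, and Ccng1 and Btg2, 2 of 10, had an unadjusted p below 0.05. Among all genes 0.131% passed limma's test and 8.22% had an unadjusted p under 0.05. The log2 change of Ccng1 was 1.45 (SE 0.37, 95% interval 0.72 to 2.18, limma's adjusted p = 0.0709), a 2.73-fold difference between means of 6.63 ± 0.32 (SD, n = 2) and 5.18. The log2 change of Btg2 was 1.22 (SE 0.37, 95% interval 0.48 to 1.96, limma's adjusted p = 0.183), a 2.33-fold difference between means of 4.90 ± 0.13 (SD, n = 2) and 3.68 ± 0.47 (SD, n = 3). For these genes the nonTG and C57BL/6 arrays did not overlap, as was the case in the same direction for 15.4% of all genes and in either direction for 24.8%. This comparison and the preceding one use the same C57BL/6 arrays, so a low or high control array moves both alike.

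The remaining members had log2 changes between -0.65 and 0.28 in nonTG against C57BL/6 (limma's adjusted p = 0.676 to 0.962). Sesn2 had the most negative one (-0.65, 95% interval -1.41 to 0.11), and Zmat3 followed with -0.39 (95% interval -1.12 to 0.34). Cdkn1a stood at -0.07, Mdm2 at 0.28, Sesn1 at 0.12, Trp53inp1 at 0.10, Pmaip1 at 0.15 and Bbc3 at 0.26. The median over the 10 members was 0.14, and 7 changes were above 0, beside a median of 0.04 and 53.2% above 0 for all genes.

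The direct comparison of KDM1A TG with nonTG embryos asks what goes with the transgene itself among sires of shared litters. No member passed (limma's adjusted p = 0.772 to 0.98) and 1 had an unadjusted p below 0.05, beside 0.0437% and 6.41% of all genes. In no member did the groups stand apart without overlap, as they did in 22.4% of all genes. Ccng1 differed by 0.23 on the log2 scale (95% interval -0.50 to 0.96) and Btg2 by 0.32 (95% interval -0.42 to 1.05). The KDM1A TG and nonTG arrays overlapped for both genes, and the intervals leave room for a difference of close to 2-fold in favour of KDM1A TG. Sesn2 had the largest difference, 0.84 higher in KDM1A TG (95% interval 0.08 to 1.60, unadjusted p = 0.0315, limma's adjusted p = 0.772), with arrays that overlapped. Pmaip1 had the most negative one, -0.45 (95% interval -1.18 to 0.27). The members' median of 0.25 lay beside 0.16 for all genes, and 8 of 10 were above 0 beside 65.4%.

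The calls of Ccng1 and Btg2 in KDM1A TG against C57BL/6 were lost after quantile normalization (log2 changes 1.43 and 1.31, limma's adjusted p = 0.156 and 0.182) and cyclic loess (1.31 and 1.24, limma's adjusted p = 0.167 and 0.202). They were also lost when unnamed probesets and those with several symbols were tested too, with unchanged log2 changes (limma's adjusted p = 0.0549 and 0.07). Without C57BL/6 replicate 3 the changes were 1.39 and 1.43 (limma's adjusted p = 0.0714 for each) and without KDM1A TG replicate 3 they were 1.52 and 1.26 (limma's adjusted p = 0.107 and 0.341). Btg2 was also not called without C57BL/6 replicate 1 (1.38, limma's adjusted p = 0.0964). Without C57BL/6 replicate 2, which had the highest Ccng1 and Btg2 values of its group, the nonTG changes passed at 1.66 for Ccng1 and 1.49 for Btg2 (limma's adjusted p = 0.0184 and 0.0441). With all 8 arrays the nonTG change of Ccng1 also passed without the filter on low values and with robust eBayes (limma's adjusted p = 0.0403 and 0.0288), and at a threshold of 0.10. The sign of the Ccng1 and Btg2 changes from C57BL/6 was positive under all 25 alternatives in both comparisons. Alternatives of the filter, variance moderation and threshold leave the log2 change as it was, so there the sign could not differ.

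**Figure D3:**
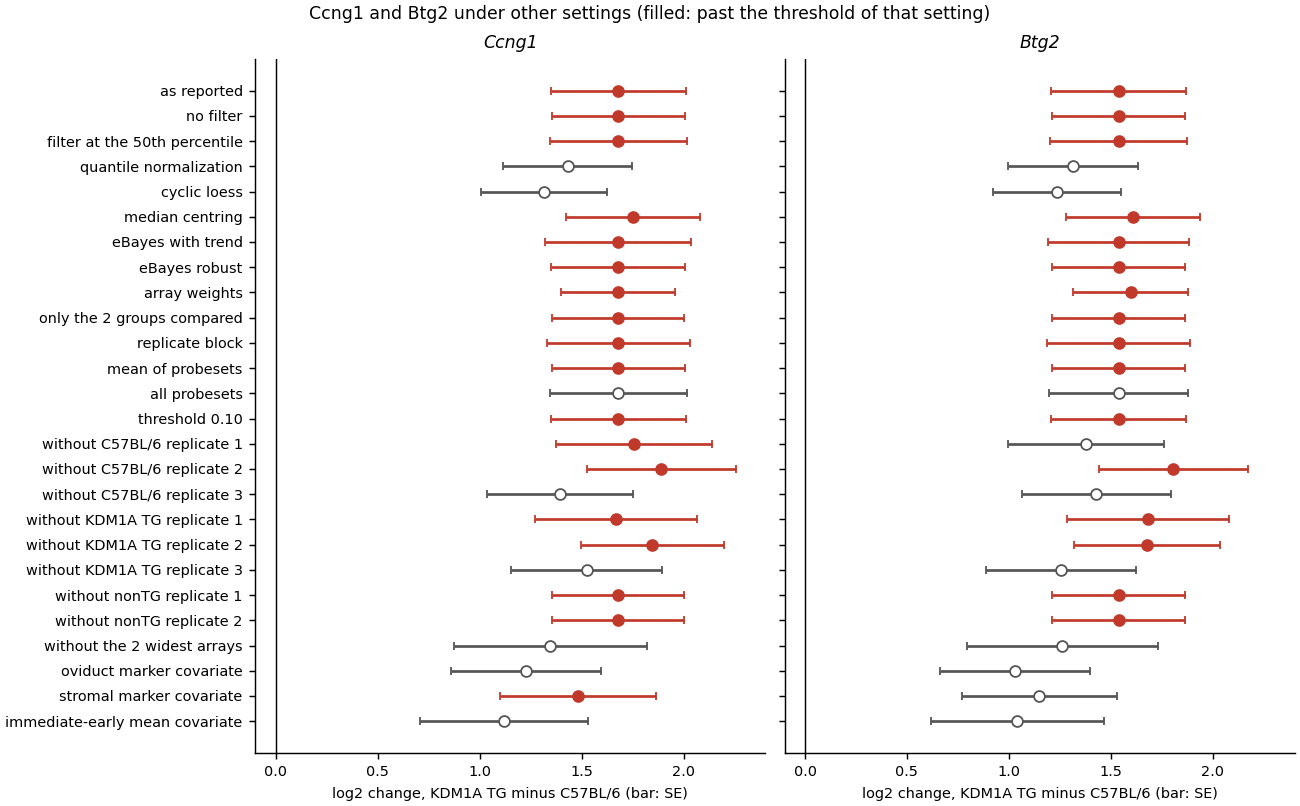
log2 change of Ccng1 and Btg2 between KDM1A TG and C57BL/6 embryos (horizontal axis, bars are the SE) as reported and under 25 alternatives (vertical axis); filled points passed the threshold of that setting. The Ccng1 change ran from 1.12 to 1.89 and passed in 17 alternatives, and the Btg2 change ran from 1.03 to 1.81 and passed in 15. The fit of the groups compared alone and those without either nonTG array gave the same values. The threshold of 0.10 reuses the reported fit, so the counts are not of distinct fits.

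Markers of maternal tissue were measured beside these genes, since the embryos were flushed from oviducts. The label of 2-cell embryo was set against transcripts of the egg, whose mean ran from 4.10 to 5.21 over the arrays, and of genome activation (3.80 to 4.74). In nonTG against C57BL/6 21 of the 24 egg transcripts and 18 of the 21 activation genes had a change below 0. Their medians were -0.62 and -0.42, where 53.2% of all genes had a change above 0. An unadjusted p under 0.05 was seen for 7 and 5 of them, beside 8.22% of all genes. The medians were -0.16 and -0.12 in KDM1A TG against C57BL/6 and 0.57 and 0.36 in KDM1A TG against nonTG. In the first, 1 and 3 genes had an unadjusted p under 0.05, beside 14.2% of all genes. In the second, 6 and 5 did, beside 6.41% of all genes. By limma's test 0 genes of either list passed in any comparison. Of all genes 0.725% passed in KDM1A TG against C57BL/6, 0.131% in nonTG against C57BL/6 and 0.0437% in KDM1A TG against nonTG. The part of these transcripts in the members' nonTG values was not tested. Of 10 blood markers, S100a9 fell in KDM1A TG against C57BL/6 (log2 change -1.92, limma's adjusted p = 0.0111). S100a8, which encodes the partner of its product in neutrophils, stood at -1.80 (limma's adjusted p = 0.0513). In that comparison 7 of the 10 had a change above 0 and 3 below, beside 64.9% of all genes above 0. The median of the blood markers was 0.18 there, that of the 9 cumulus and granulosa markers -0.36 and that of the 4 sperm markers 0.02. In nonTG against C57BL/6 the most negative blood marker change was -1.91, and 0 of the 10 passed (smallest limma adjusted p = 0.134).

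Oviduct epithelial markers were also read, and whether their RNA came from oviduct cells or from the embryos was not tested. The mean of the 29 oviduct markers tested was 5.25, 5.72 and 5.06 with C57BL/6, 6.02, 5.38 and 6.23 with KDM1A TG and 5.87 and 5.69 with nonTG sires. Of these markers 28 had a change above 0 in KDM1A TG against C57BL/6, beside 64.9% of all genes. There were 25 above 0 in nonTG against C57BL/6, beside 53.2%. Their medians were 0.53 and 0.49, beside 0.18 and 0.04 for all genes. By limma's test 0 of 29 passed in either, where 0.725% and 0.131% of all genes did. An unadjusted p under 0.05 was seen for 10 and 6 of the 29, beside 14.2% and 8.22% of all genes. The mean of the 20 stromal and muscle markers was 4.30, 4.41 and 3.71 in C57BL/6 arrays. It was 4.71, 4.43 and 6.03 in KDM1A TG and 5.34 and 3.97 in nonTG arrays. In KDM1A TG against C57BL/6 3 of these 20 rose, the contractile genes Acta2 and Myl9 and the matrix gene Dpt. Their log2 changes were 1.75, 1.54 and 1.28 (limma's adjusted p = 0.0155, 0.0338 and 0.0418), where 0.655% of all genes were called higher. Acta2 stood at 5.52, 4.90 and 3.70 in C57BL/6 and 5.76, 5.75 and 7.88 in KDM1A TG arrays. Myl9 stood at 4.75, 4.28 and 3.97 in C57BL/6 and 5.57, 4.85 and 7.20 in KDM1A TG arrays. KDM1A TG replicate 3 was the highest for both genes. All 20 had a change above 0, beside 64.9% of all genes, and 16 of 20 did in nonTG against C57BL/6, beside 53.2%. The medians of the 20 were 0.99 and 0.52, beside 0.18 and 0.04 for all genes. An unadjusted p under 0.05 was seen for 13 and 5 of them, beside 14.2% and 8.22% of all genes. Beyond the values that follow, the part of these tissues in the Ccng1 and Btg2 differences was not tested.

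With a covariate for the mean of the oviduct markers, the KDM1A TG change was 1.23 for Ccng1 (SE 0.37, limma's adjusted p = 0.462) and 1.03 for Btg2 (SE 0.37, limma's adjusted p = 0.603), against 1.68 and 1.54 without it. In nonTG against C57BL/6 it was 1.08 and 0.80 with this covariate. With the stromal marker mean as a covariate, an alternative added after the data were seen, the KDM1A TG change was 1.48 for Ccng1 (limma's adjusted p = 0.0458) and 1.15 for Btg2 (limma's adjusted p = 0.263). KDM1A TG replicate 2 had a lower oviduct marker mean than C57BL/6 replicate 2 (5.38 against 5.72) and nearly the same stromal mean (4.43 against 4.41). In this pair, picked after the values were seen, Ccng1 stood at 6.53 against 5.60 and Btg2 at 4.94 against 4.22. A single pair has no spread, so it describes these arrays only, and what tissue content does to these genes was not tested. Without KDM1A TG replicates 1 and 3, which left that single KDM1A TG array, its spread taken from the other groups, the changes were 1.35 and 1.26 (limma's adjusted p = 0.998 for each). In pools such as these, more cells of a type and more RNA per cell cannot be told apart.

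**Figure D4:**
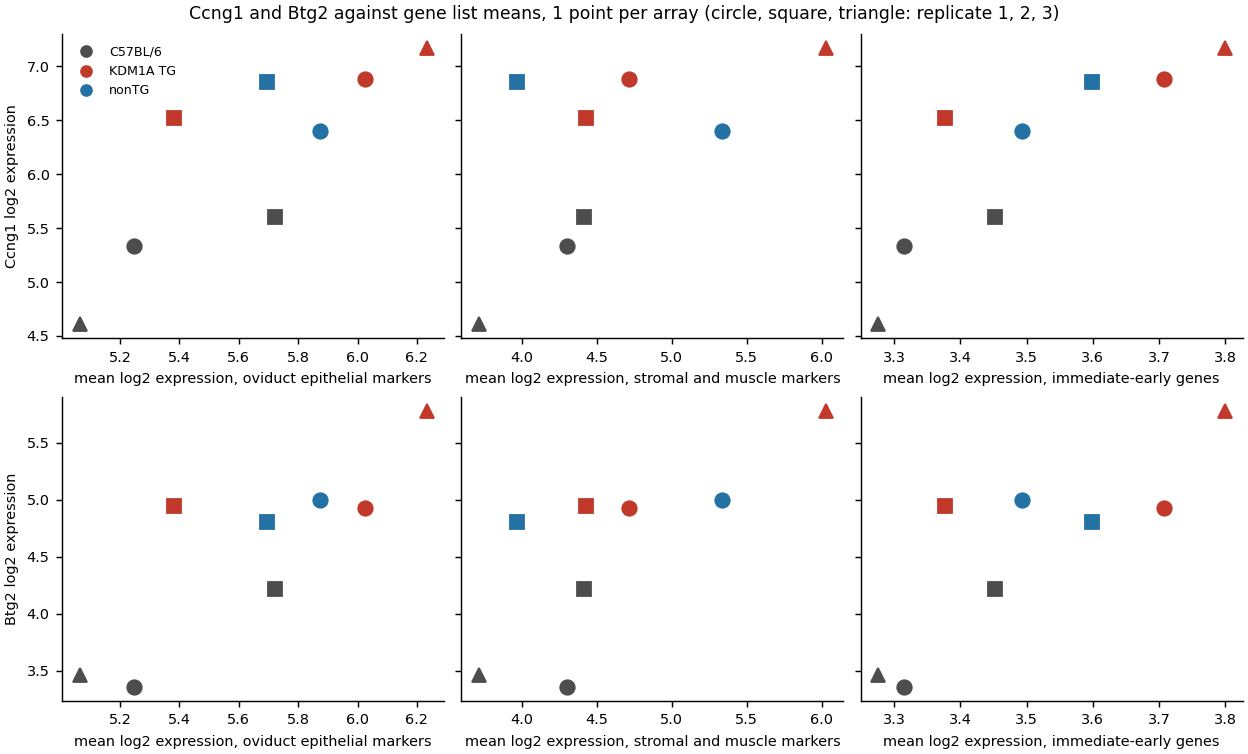
log2 expression of Ccng1 (top) and Btg2 (bottom) in each of the 8 arrays against the array's mean log2 expression of oviduct epithelial markers, stromal and muscle markers and immediate-early genes; colours give the sire group and symbols the replicate. The C57BL/6 arrays lie lowest for both genes, and KDM1A TG replicate 3 is highest on all axes (Ccng1 7.17, Btg2 5.78, oviduct mean 6.23, stromal mean 6.03).

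Wider lists of genes are read beside the shares of all genes that passed limma's test in KDM1A TG against C57BL/6, nonTG against C57BL/6 and KDM1A TG against nonTG, 0.725%, 0.131% and 0.0437%. At shares this low, 0 calls in a list of 11 to 31 genes does not set it apart from other genes. An unadjusted p under 0.05 was found for 14.2%, 8.22% and 6.41% of all genes in the same order, and these shares stand beside each list.

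Of 40 further p53 targets written down, 25 were tested, and 0 passed limma's test in any of the 3 comparisons. An unadjusted p under 0.05 was found for 1, 1 and 2 of the 25, beside the 14.2%, 8.22% and 6.41% of all genes. In KDM1A TG against C57BL/6, 19 of the 25 had a change above 0, and their median of 0.17 lay beside 0.18 for all genes. Ddit4, an mTORC1 inhibitor induced by several stresses, had the smallest p (log2 change 0.85, SE 0.34, limma's adjusted p = 0.246). Perp, a membrane protein of desmosomes and apoptosis, had a change of 0.62 and Casp1, an inflammatory caspase, one of 0.65, and neither passed. In nonTG against C57BL/6, 12 of 25 were above 0 with a median of -0.06. There Tigar, which redirects glucose to the pentose phosphate pathway, had a change of -0.95 (SE 0.37, limma's adjusted p = 0.415). Tigar was 1.11 higher in KDM1A TG than in nonTG embryos (limma's adjusted p = 0.511) and Sfn, the 14-3-3 sigma gene, 1.06 higher, without passing.

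Regulators of p53 gave 31 tested genes of 40 written, and 0 passed limma's test in any comparison. In order, 3, 2 and 2 of the 31 had an unadjusted p under 0.05, beside 14.2%, 8.22% and 6.41% of all genes. Their median change in KDM1A TG against C57BL/6 was 0.18, equal to that of all genes to 2 decimals. Atr, the kinase of replication stress, had log2 values of 2.26, 2.74 and 2.29 in C57BL/6 and 3.29, 3.18 and 3.26 in KDM1A TG arrays. Its change was 0.81 (SE 0.33, limma's adjusted p = 0.251), without overlap between those groups. Nbn, a sensor of DNA breaks, and H2ax, the histone variant phosphorylated at breaks, had changes of 0.73 and 0.68. In nonTG against C57BL/6 the deacetylase gene Sirt1 had a change of -0.96 (limma's adjusted p = 0.453), and the list's median was -0.04.

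Paralogs of the members, 11 tested of 20 written, also held 0 calls by limma's test in the 3 comparisons. An unadjusted p under 0.05 was found for 3, 0 and 0 of the 11, beside 14.2%, 8.22% and 6.41% of all genes. Their median change in KDM1A TG against C57BL/6 was 0.49, beside 0.18 for all genes, with 9 of 11 above 0. The kinase inhibitor genes Cdkn1c (0.84) and Cdkn1b (0.86), related to Cdkn1a, had the smallest p, and Sesn3, the third sestrin, had a change of 0.62. Ccni, a cyclin related to cyclin G1, had a change of 0.70 in KDM1A TG and 0.63 in nonTG against C57BL/6. Btg4, the egg's own member of the Btg2 family, had a change of -0.54 in nonTG against C57BL/6 (limma's adjusted p = 0.719).

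Immediate-early genes, the class to which Btg2 also belongs, had 0 of 19 tested genes called by limma's test in each comparison. Of the 19, 2, 0 and 0 had an unadjusted p under 0.05, beside 14.2%, 8.22% and 6.41% of all genes. Their median was 0.41 in KDM1A TG and 0.28 in nonTG against C57BL/6, with 15 of 19 above 0 in each. Zfp36, an mRNA decay factor, had the largest change in KDM1A TG (1.0, SE 0.34, limma's adjusted p = 0.148) and Ier2 followed with 0.79. The mean of the list was 3.31, 3.45 and 3.28 with C57BL/6, 3.71, 3.38 and 3.80 with KDM1A TG and 3.49 and 3.60 with nonTG sires. With that mean as a covariate, a further alternative added after the data were seen, the KDM1A TG changes were 1.12 for Ccng1 and 1.04 for Btg2 (limma's adjusted p = 0.996 for each).

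Genes of the integrated stress response, through which Sesn2 and Ddit4 respond to ATF4, had changes above 0 in 14 of 14 cases in KDM1A TG against C57BL/6, with a median of 0.29, where 64.9% of all genes were above 0. None of the 14 passed limma's test in any comparison. An unadjusted p under 0.05 was found for 1, 0 and 2 of them, beside 14.2%, 8.22% and 6.41% of all genes. In nonTG against C57BL/6 8 of 14 were above 0, with a median of 0.03. Between KDM1A TG and nonTG embryos the median was 0.35 beside 0.16 for all genes. Ddit3, the pro-apoptotic factor CHOP, had the smallest p there (0.94 higher in KDM1A TG, limma's adjusted p = 0.705), followed by Sesn2 itself.

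**Figure D5:**
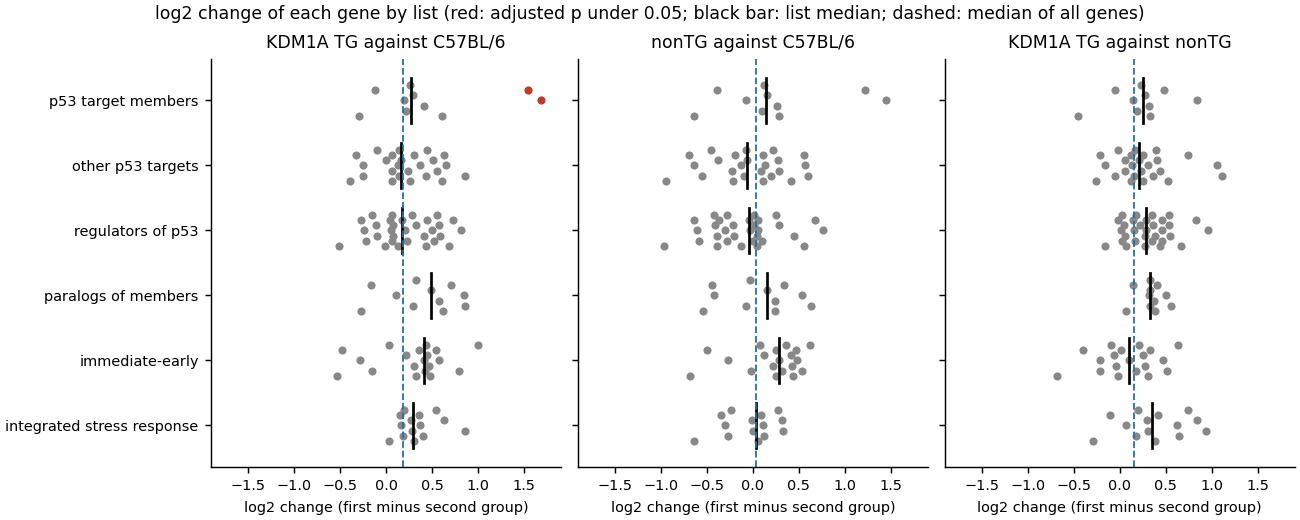
log2 change (horizontal axis, first minus second group) of each tested gene of 6 lists in the 3 comparisons; red points passed at an adjusted p under 0.05, black bars are list medians and the dashed line is the median of all genes. Ccng1 and Btg2 are the only red points, and the other p53 targets centre on the median of all genes in KDM1A TG against C57BL/6 (0.17 beside 0.18).

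Across the 8 arrays Ccng1 and Btg2 followed each other, with a Pearson correlation of 0.93, which includes the difference between groups. The genes most like Ccng1 by the same measure, over all 8 arrays and leaving out predicted and small RNA genes, were Zmynd11 (0.989), Eif2b2 (0.985), Rpa1 (0.983), Dynlrb1 (0.981) and Slc25a11 (0.980). Their log2 changes in KDM1A TG against C57BL/6 ran from 0.54 to 1.18. Those most like Btg2 were Jam2 (0.984), Sdha (0.983), Mme (0.980), Jkamp (0.974) and Grn (0.974). Their log2 changes ran from 1.13 for Grn to 1.97 for Jam2. The correlation holds the difference between groups, so large changes are part of how these genes were chosen and no test is given for them. With 8 points that share their arrays, such values describe these pools only.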

How the data were processed

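RNA of 8 pools of 2-cell embryos was measured on Affymetrix arrays. The authors deposited 1 log2 value per probeset and array. R 3.1.0, oligo, RMA and limma are listed, with no role, per the submitters' processing notes. The sources used here do not describe background correction or filters on probesets. Values were used as deposited. Of 22961 probesets, 15745 carried 1 gene symbol in the platform annotation, 1320 several and 5896 were unnamed here. The brightest probeset by mean stood for a gene, and genes were tested if that mean exceeded the 30th percentile of probesets.

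A model of 3 group means over the 8 arrays, without a block, was fitted in R 4.3.3 by limma 3.58.1 (lmFit, then eBayes). The same code was run on simulated data. These had independent errors of the spread that limma fitted, equal across arrays, so they do not cover arrays of unequal width. Named genes are the 10 members, up to 4 genes of smallest p per list and comparison, and the 5 genes most correlated with Ccng1 and with Btg2. The members and lists were chosen with earlier results of these data known. Alternatives covered the filter, scaling, moderation of variances, weights for arrays, a replicate block, probeset choice, threshold, marker covariates and subsets of arrays. The number of arrays limits the precision.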

Additional observations from a re-analysis of the deposited data

How the results depend on the processing

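Over 25 alternatives, some of which share a fit, the members gained 5 calls, lost 18 and reversed none, and 44 uncalled values changed sign. Bbc3 was not tested with the filter at the 50th percentile. In KDM1A TG against C57BL/6 the number of genes called, 83 as reported, was 138 without a filter, 53 with the filter at the 50th percentile, 5 after quantile normalization and 5 after cyclic loess, 151 after median centring, 154 with robust eBayes, 1694 with array weights, 7 over all probesets and 174 at a threshold of 0.10. It was 1 without the arrays of widest values, 6 with the oviduct, 41 with the stromal and 0 with the immediate-early covariate (limma, 421 at an unadjusted p under 0.05), and 9 to 254 when single arrays were left out, lowest without KDM1A TG replicate 3 and highest without C57BL/6 replicate 2. In nonTG against C57BL/6 the 15 genes became, in the same order, 44, 9, 1, 1, 13, 42, 47, 0 (limma, 1273 at an unadjusted p under 0.05) and 42, then 6, 5, 45 and 1, and 6 in a fit of the groups compared alone. Leaving out single arrays gave 3 (nonTG replicate 2) to 80 (C57BL/6 replicate 2). In KDM1A TG against nonTG the 5 genes became 2 with the filter at the 50th percentile, 2 after quantile normalization and cyclic loess, 8 with robust eBayes, 3 with array weights, the mean of probesets, the arrays of widest values left out or the immediate-early covariate, 12 with the stromal covariate, and 2 to 17 without single arrays. Of the called genes, 8 higher and 7 lower in nonTG against C57BL/6 became 0 and 1 after quantile normalization and after cyclic loess; in KDM1A TG against nonTG, 4 and 1 became 2 and 0.

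With the replicate number as a block the counts were 76, 23 and 4, and Ccng1 and Btg2 were still called in KDM1A TG against C57BL/6 (adjusted p = 0.00414 and 0.0123). The deviations of arrays with the same number from their group means had correlations from -0.38 to 0.18. With 2 or 3 arrays per group, these values cannot tell whether the numbers pair the arrays, and the labels name no batch. The reasons for these shifts were not tested.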
